A study of Homo sapiens with 4 samples.

Results

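Peaks of accessible chromatin were examined at 10 genes of the NF-kB pathway, of 19970 protein-coding genes in the annotation: the subunit genes NFKB1, NFKB2, RELA, RELB and REL, the inhibitor genes NFKBIA, NFKBIE and TNFAIP3, and the ubiquitin-system genes BIRC3 and TRAF3. A peak was assigned to a gene when the gene's body was the nearest protein-coding one to the peak's summit and lay within 100 kb. Overlapping peaks of all lists were merged into regions, and the 10 genes received 66 of 122632 merged regions. The cells were OPM-2, an established line of human multiple myeloma, a cancer of plasma cells. They were cultured for 72 h with the vehicle DMSO, with 1 µM all-trans retinoic acid (ATRA), with 1 µM pomalidomide (POM), or with both agents together (ATRA+POM). ATRA is the ligand of the retinoic acid receptors, and POM binds cereblon and leads to degradation of the transcription factors Ikaros and Aiolos. Chromatin was profiled by ATAC-seq, in which the transposase Tn5 inserts adapters into open DNA. Each condition had 1 library, so differences are described without p-values and without a check against replicates.

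NF-kB is a family of dimeric transcription factors that are held in the cytoplasm by IkB proteins until a signal removes them. In the canonical arm an IkB kinase marks IkB-alpha for destruction and releases dimers of RELA or c-REL with p50, and in the alternative arm p100 is cut to p52, which pairs with RELB. Several of the genes that restrain the pathway are themselves switched on by it, and mutations of the alternative arm, TRAF3 and BIRC3 among them, are well known in multiple myeloma.

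The libraries differed in depth, which was estimated at 94.1% (ATRA), 33.6% (POM) and 62.7% (ATRA+POM) of DMSO. The estimate was the background recovered from the deposited values, divided by the width of the narrowest peak in the list. These widths were 234 bp in DMSO, 248 in ATRA, 162 in POM and 238 in ATRA+POM. The pileup, the number of reads stacked over a summit, was therefore divided by a scale of 0.873, 0.396 or 0.707, the median pileup ratio to DMSO at the 42930 regions that every list called. The result is called the scaled pileup. Of the genes that mark plasma cells, SDC1, IRF4, PRDM1, XBP1 and NSD2 had a peak within 1 kb of a boundary of the gene in every list and TNFRSF17 had none there, while of 3 markers of other lineages LYZ and EPCAM had none and CD3E had one in every list, with a pileup of 146 in DMSO.

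The stretches upstream of the gene starts lie within the start regions described below for NFKB1, REL and BIRC3, while that of RELA overlaps only the edge of its region and that of TRAF3 ends just before it. RefSeq start sites on GRCh38.p14 were held for 8 of the 10 genes. The 12 promoters of these genes were searched, on both strands and over 250 bases upstream and 50 downstream, for the kappaB consensus. This consensus is the 10-base site GGGRNNYYCC on one strand, where R is A or G, Y is C or T and N is any base. It was in 8 of these 12 promoters and in 7 of the 8 genes, against 12.7% of 22155 promoters and 15.9% of 15812 protein-coding genes. RELA was the gene without it. The genes NFKB1, REL and BIRC3 are shown because their start regions, given below, had ratios to DMSO above the median of gene starts in POM and ATRA+POM, and RELA and TRAF3 because theirs were far below it. The start region of TNFAIP3 was above that median too but is not shown. NFKB1 and RELA have 2 start sites each, and the one farthest upstream is shown. The 250 bases upstream of the other, which in RELA lie wholly inside its start region, hold no kappaB consensus. Each run is the 250 bases upstream of the start site, read 5′ to 3′ on the gene's strand, and capitals mark the kappaB consensus on either strand:
NFKB1, chr4:102501109-102501358, plus strand: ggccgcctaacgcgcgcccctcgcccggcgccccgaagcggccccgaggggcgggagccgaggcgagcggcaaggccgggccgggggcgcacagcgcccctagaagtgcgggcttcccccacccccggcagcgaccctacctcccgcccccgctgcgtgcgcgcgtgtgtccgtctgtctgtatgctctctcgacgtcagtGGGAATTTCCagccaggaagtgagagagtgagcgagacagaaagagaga
REL, chr2:60881324-60881573, plus strand: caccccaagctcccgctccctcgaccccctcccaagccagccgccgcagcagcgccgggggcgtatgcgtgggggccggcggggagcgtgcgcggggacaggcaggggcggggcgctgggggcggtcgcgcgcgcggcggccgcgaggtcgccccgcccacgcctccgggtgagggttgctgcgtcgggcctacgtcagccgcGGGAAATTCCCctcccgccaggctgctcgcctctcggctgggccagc
BIRC3, chr11:102317234-102317483, plus strand: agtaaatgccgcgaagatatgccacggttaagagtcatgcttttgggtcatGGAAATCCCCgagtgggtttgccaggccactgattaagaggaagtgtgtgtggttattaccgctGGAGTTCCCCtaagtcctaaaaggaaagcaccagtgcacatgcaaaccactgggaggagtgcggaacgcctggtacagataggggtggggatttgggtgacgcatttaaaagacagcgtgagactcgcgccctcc
RELA, chr11:65663858-65664107, minus strand: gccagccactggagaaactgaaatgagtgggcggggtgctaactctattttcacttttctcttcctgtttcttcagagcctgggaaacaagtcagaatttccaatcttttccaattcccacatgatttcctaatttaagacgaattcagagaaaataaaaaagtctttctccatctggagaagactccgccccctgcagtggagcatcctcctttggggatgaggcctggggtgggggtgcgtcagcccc
TRAF3, chr14:102777199-102777448, plus strand: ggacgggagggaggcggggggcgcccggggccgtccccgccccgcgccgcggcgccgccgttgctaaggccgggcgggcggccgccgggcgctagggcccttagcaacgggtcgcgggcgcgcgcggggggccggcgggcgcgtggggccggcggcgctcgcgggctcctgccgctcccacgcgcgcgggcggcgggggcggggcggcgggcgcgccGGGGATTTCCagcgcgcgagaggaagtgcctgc

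Counted from the start site, the site of NFKB1 lay at -49 to -40, the overlapping pair in REL at -47 to -37 and the site of TRAF3 at -33 to -24. BIRC3 had one at -199 to -190 and one at -135 to -126. The other matches were GGAAATTCCC in NFKBIA at -81 to -72, GGAAAGTCCC and GGAAATCCCC in TNFAIP3 at -67 to -58 and -55 to -46, and 4 stretches in NFKB2, among them GGGACTTTCC at -21 to -12 of its start site farthest downstream. The Ikaros core TGGGAA was in promoters of 3 of the 8 genes (NFKB1, NFKB2 and RELA), against 28.1% of protein-coding genes, and in NFKB1 and in NFKB2 1 match overlapped a kappaB site. The AP-1 site TGANTCA was in none of the 12 promoters, against 6.16% of all promoters, and neither were the retinoic acid receptor repeats DR5 and DR2, each of which was in 1 promoter of 22155. A match describes the letters only and does not show binding.

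The 10 genes together had 49 peaks in DMSO, 49 in ATRA, 42 in POM and 50 in ATRA+POM. The mean was 4.9, 4.9, 4.2 and 5.0 peaks per gene, against 3.29, 3.28, 2.77 and 3.32 over all protein-coding genes. TNFAIP3 had most peaks (12, 12, 8 and 12 in the same order), followed by NFKB1 (10, 10, 8 and 10), and NFKBIE had 1, 1, 2 and 1. Between 32.7% and 38.8% of the members' peaks were among the 20000 highest-scoring peaks of their list, against 23.4% to 28.9% of all peaks. The members' peaks also lay more often within 1 kb of a gene boundary, 22.4% to 28.6% of them, against 12.7% to 15.6% of all peaks. The part of this position in the shares given here was not tested. Of the 66 regions, 32 (48.5%) were called in all lists, against 35.0% of all regions. The remainder included 7 regions called in DMSO alone (10.6%, against 7.36% of all regions) and 7 in ATRA alone (10.6%, against 7.93%). In POM alone there were 2 (3.03%, against 6.94%) and in ATRA+POM alone 3 (4.55%, against 13.0%). In POM and ATRA+POM only there were 4 (6.06%, against 6.05%).

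**Figure D1:**
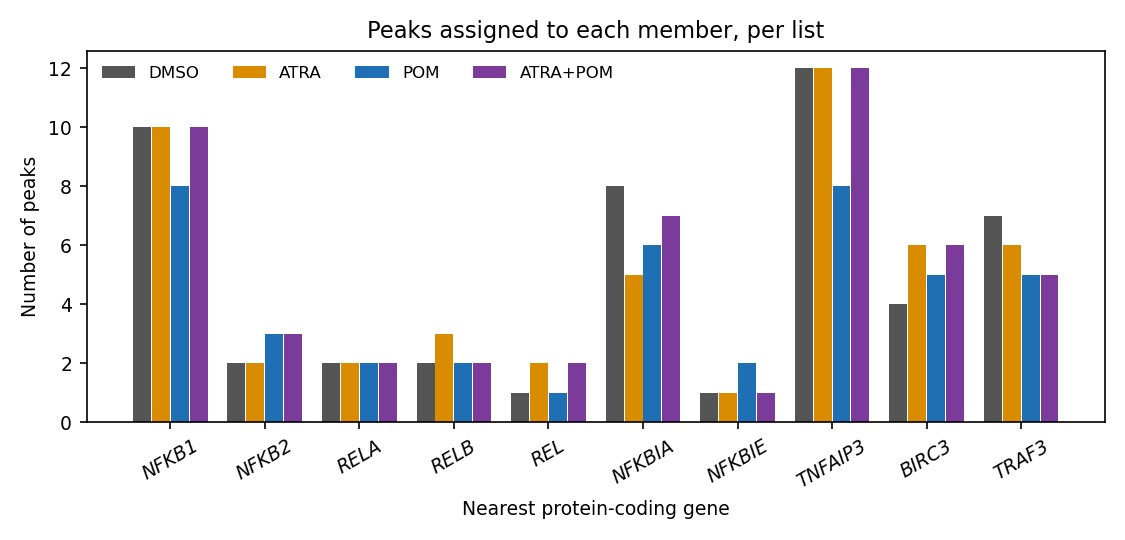
Number of peaks (vertical axis) assigned to each of the 10 genes (horizontal axis) in each deposited list, with 1 bar per library. TNFAIP3 and NFKB1 have the most peaks and both have 8 in POM, the shallowest library.

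At the gene starts, the ratios to DMSO ran from 1.53 down to 0.35 in POM and from 1.53 down to 0.29 in ATRA+POM. BIRC3 was at the top of the order in POM and in ATRA+POM relative to DMSO, and NFKBIE and TRAF3 were at the bottom. The ratio of the highest to the lowest start region was 4.38 in POM and 5.22 in ATRA+POM, and 2.20 in ATRA. A single scale per library cannot change this order, whereas it does move every ratio by the same factor. On the deposited fold over local background, without scaling, the order was another. BIRC3 had a log2 ratio of 0.11 in ATRA+POM, below NFKB2 (0.535), REL (0.33), TNFAIP3 (0.33), RELA (0.27), NFKB1 (0.215), RELB (0.16) and NFKBIA (0.12). In POM, REL (0.65) was above BIRC3 (0.52). NFKBIE and TRAF3 stayed lowest in both. Over all regions within 1 kb of a protein-coding gene's boundary, the class that holds these start regions, the median log2 ratio to DMSO was 0.01 in ATRA, -0.47 in POM and -0.48 in ATRA+POM, so a ratio somewhat below 1 was usual for a gene start. Scaling on the shared regions of this class alone would add 0.48 to every log2 ratio of POM and of ATRA+POM to DMSO, and scaling on the estimated depth would add 0.24 and 0.17, and -0.11 to those of ATRA.

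**Figure D2:**
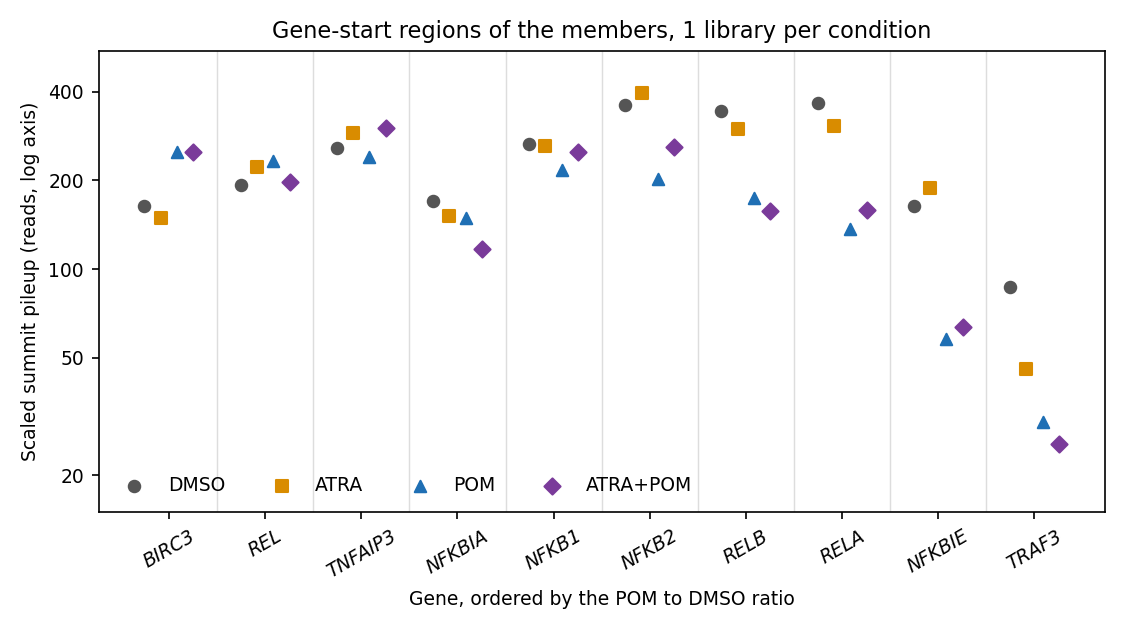
Scaled summit pileup (vertical log axis, reads on the scale of the DMSO library) at the start region of each gene (horizontal axis), 1 point per library, genes ordered by the ratio of POM to DMSO. BIRC3 has its 2 highest points in POM and ATRA+POM (250.1 and 250.3 against 164 in DMSO), and NFKBIE and TRAF3 have theirs in DMSO and ATRA.

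NFKB1 encodes p105, the precursor of the p50 subunit. Its start region (chr4:102500540-102502577) had a pileup of 265 in DMSO, 229 in ATRA, 86 in POM and 176 in ATRA+POM, or 265, 262, 217 and 249 when scaled. The 4 scaled values lay close together, and the ratio to DMSO was 0.82 in POM (95% interval for counting error 0.64 to 1.05) and 0.94 in ATRA+POM (0.77 to 1.14), with a log2 ratio that turned to 0.19 and 0.39 when scaled on shared regions near gene boundaries. The largest pileup of the gene in both POM libraries was elsewhere, in a region 3.54 kb past the gene's 3′ end (chr4:102619849-102621248) and inside the non-coding locus LOC105377347. There the pileup was 171 in DMSO, 148 in ATRA, 152 in POM and 267 in ATRA+POM, and the scaled pileup 171, 170, 384 and 378. POM and ATRA+POM were high and DMSO and ATRA low, with a ratio to DMSO of 2.25 (1.79 to 2.81) in POM and 2.21 (1.82 to 2.69) in ATRA+POM, against 0.99 (0.79 to 1.24) in ATRA. Its rank by the deposited −log10 q-value was 7618 in DMSO, 7320 in ATRA, 598 in POM and 692 in ATRA+POM, so it stood in the top 0.86% and 0.81% of the last pair of lists and in the top 9.97% and 9.55% of the first pair. Among regions away from gene boundaries, 11.8% had a higher ratio in POM and 12.8% in ATRA+POM, so ratios of that size were not rare. On the deposited fold over local background, without scaling, the log2 ratio stayed above 0 but was smaller, 0.78 in POM and 0.52 in ATRA+POM.

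The other regions of NFKB1 differed among themselves. One 70.0 kb upstream (chr4:102430684-102431845) had a pileup of 122, 128, 27 and 83 in DMSO, ATRA, POM and ATRA+POM, and its ratio to DMSO was 0.56 (0.35 to 0.85) in POM and 0.96 (0.72 to 1.28) in ATRA+POM. A region within the gene (chr4:102597919-102599708) had 94, 57, 41 and 92, with a ratio of 0.69 (0.49 to 0.98) in ATRA, 1.10 (0.74 to 1.61) in POM and 1.38 (1.03 to 1.87) in ATRA+POM. Another within the gene (chr4:102612662-102613376) had 37, 26, 19 and 39, and the counting intervals of its ratios to DMSO held 1 in POM (0.70 to 2.31) and in ATRA+POM (0.93 to 2.40). A region of 353 bp lying 51.4 kb upstream, inside the antisense locus NFKB1-AS1, was called in ATRA, POM and ATRA+POM with pileups of 43, 28 and 27 and in DMSO not at all. Against a floor of 17 reads, below which DMSO peaks could be missed, this is 2.90-fold, 4.16-fold and 2.25-fold higher on the scaled values. In ATRA, POM and ATRA+POM the local background of this region was above that of the library, so the floor does not bound these ratios. One more region inside the gene (chr4:102546364-102546860) was called in ATRA+POM alone with a pileup of 25, 2.08-fold above DMSO on the same floor. Its local background of 2.72 reads was also above that of the library, so this ratio is not a bound either.

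NFKB2 encodes p100, the precursor of p52 in the alternative arm. At its start (chr10:102393998-102395767) the pileup was 361 in DMSO, 346 in ATRA, 80 in POM and 184 in ATRA+POM, or 361, 396, 202 and 260.2 when scaled. Both POM libraries were below the other pair, with ratios to DMSO of 0.56 (0.43 to 0.72) and 0.72 (0.60 to 0.86), neither past 2-fold. Of start regions and others within 1 kb of a gene boundary, 72.6% had a higher ratio in POM and 49.8% in ATRA+POM, so the second value was near the middle of its class. When scaled near gene boundaries the log2 ratio was -0.36 in POM and 0.01 in ATRA+POM, and on the unscaled deposited fold 0.37 and 0.54.

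RELA encodes p65, the main activating subunit of the canonical arm. Its start region (chr11:65662698-65663897) was the strongest of all members' in DMSO, with a pileup of 365, and had 266 in ATRA, 54 in POM and 112 in ATRA+POM, or 365, 305, 136 and 158 when scaled. DMSO was highest and POM lowest, and the ratio to DMSO was 0.83 (0.71 to 0.98) in ATRA, 0.37 (0.28 to 0.50) in POM and 0.43 (0.35 to 0.54) in ATRA+POM. In its class 93.6% and 87.3% of regions had a higher ratio in POM and in ATRA+POM. Its rank moved from the top 1.11% of the DMSO list to 2.42%, 12.5% and 6.06% in ATRA, POM and ATRA+POM. The log2 ratio was below 0 on each of the 3 scales (-0.94 and -0.73 when scaled near gene boundaries), but it was 0.04 in ATRA, 0.05 in POM and 0.27 in ATRA+POM on the deposited fold, whose local background was 29.3 reads in DMSO, 20.5 in ATRA, 3.39 in POM and 6.75 in ATRA+POM. A region 0.656 kb past the gene's end (chr11:65652299-65653340) had 249, 238, 32 and 110, with a ratio to DMSO of 0.32 (0.22 to 0.47) in POM and 0.62 (0.49 to 0.78) in ATRA+POM. Its log2 ratio on the deposited fold was -0.07 and 0.33.

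RELB encodes the partner of p52, and the pattern at its start resembled that of RELA in values. The pileup at chr19:45001227-45002474 was 343 in DMSO, 260 in ATRA, 69 in POM and 111 in ATRA+POM, or 343, 298, 174 and 157 when scaled. The ratio to DMSO was 0.51 (0.39 to 0.66) in POM and 0.46 (0.37 to 0.57) in ATRA+POM, against 0.87 (0.74 to 1.02) in ATRA. The log2 ratio was also below 0 near gene boundaries (-0.50 and -0.65), and it was 0.40 and 0.16 on the deposited fold. A second region inside the gene (chr19:45016122-45017378) had 138, 135, 20 and 51, a ratio of 0.37 (0.22 to 0.59) in POM and 0.52 (0.37 to 0.73) in ATRA+POM, with summits up to 422 bp apart between lists and a log2 ratio on the deposited fold of -0.24 and 0.14.

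REL encodes c-REL, an activating subunit best known from lymphoid cells. At its start (chr2:60880834-60882176) the pileup was 193 in DMSO, 193 in ATRA, 92 in POM and 140 in ATRA+POM, or 193, 221, 232 and 198 when scaled. The counting intervals of all 3 ratios to DMSO held 1, at 1.15 (0.93 to 1.41) in ATRA, 1.20 (0.93 to 1.55) in POM and 1.03 (0.82 to 1.28) in ATRA+POM. Of its class, 12.8% had a higher ratio in POM and 20.7% in ATRA+POM. A neighbouring region of 314 bp (chr2:60882975-60883288) was called in ATRA alone with a pileup of 37. It counted as past 2-fold against the floor, but its local background was 15.6 reads and its rank in the list only the top 81.5%, so the floor does not bound the ratio there.

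Of the inhibitors, NFKBIA encodes IkB-alpha, the inhibitor released first in the canonical arm and a classical NF-kB target. Its start region (chr14:35403399-35405044) had a pileup of 170 in DMSO, 132 in ATRA, 59 in POM and 83 in ATRA+POM, or 170, 151, 149 and 117 when scaled. The values lay close together except for ATRA+POM, where the ratio to DMSO was 0.69 (0.52 to 0.90), against 0.88 (0.64 to 1.19) in POM. The log2 ratio in ATRA+POM was -0.06 when scaled near gene boundaries and 0.12 on the deposited fold. The summits of this broad region were up to 698 bp apart between lists. A region 15.8 kb past the gene (chr14:35385467-35385994) was called in POM and ATRA+POM with 15 reads each. This is 2.23-fold above the DMSO floor in POM and not past 2-fold in ATRA+POM. Its local background in POM was 0.83 reads, above the 0.55 of the library, so the floor does not bound the ratio.

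NFKBIE encodes IkB-epsilon, an inhibitor that acts on RELA and c-REL dimers. At its start (chr6:44264521-44265815) the pileup was 163 in DMSO, 165 in ATRA, 23 in POM and 45 in ATRA+POM, or 163, 189, 58.1 and 63.6 when scaled. DMSO and ATRA were high and both POM libraries low, with a ratio to DMSO of 0.36 (0.22 to 0.55) in POM, 0.39 (0.27 to 0.55) in ATRA+POM and 1.16 (0.93 to 1.45) in ATRA. The region passed from the top 13.0% of the DMSO list and 9.57% of the ATRA list to 51.5% in POM and 34.8% in ATRA+POM. In its class 94.9% and 91.6% of regions had a higher ratio. The log2 ratio stayed below 0 on every scale tried, and on the deposited fold (-0.38 and -0.32). A further region of 237 bp inside the gene was called in POM alone with a pileup of 14, over a local background of 3.05 reads against 0.55 for the library.

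TNFAIP3 encodes A20, a ubiquitin-editing enzyme that shuts off NF-kB signalling and is induced by it. Its start region (chr6:137866558-137868214) had a pileup of 258 in DMSO, 252 in ATRA, 95 in POM and 212 in ATRA+POM, or 258, 289, 240.0 and 299.8 when scaled. The values did not separate by treatment, and the ratio to DMSO was 0.93 (0.73 to 1.18) in POM and 1.16 (0.96 to 1.40) in ATRA+POM, with a log2 ratio in POM that was -0.10 here and 0.37 when scaled near gene boundaries. A region 50.1 kb upstream of the gene (chr6:137815789-137816750) behaved otherwise. Its pileup was 36 in DMSO, 27 in ATRA, 39 in POM and 63 in ATRA+POM, or 36, 30.9, 98.5 and 89.1 when scaled. The 2 POM libraries were high and the others low, with ratios to DMSO of 2.74 (1.70 to 4.43) in POM, 2.48 (1.62 to 3.84) in ATRA+POM and 0.86 (0.50 to 1.46) in ATRA. Of regions away from gene boundaries, 6.57% and 9.33% had a higher ratio in POM and ATRA+POM. On the deposited fold the log2 ratio was 0.84 and 0.64. A region 44.7 kb past the gene (chr6:137927471-137928694) had 41, 34, 26 and 51, and a ratio of 1.60 (0.94 to 2.68) in POM and 1.76 (1.14 to 2.72) in ATRA+POM, with summits up to 418 bp apart. One 21.4 kb past the gene (chr6:137904420-137904989) had 32, 27, 14 and 11, a ratio to DMSO of 1.11 (0.54 to 2.13) in POM and 0.49 (0.22 to 0.99) in ATRA+POM.

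BIRC3 encodes cIAP2, a ubiquitin ligase that works with TRAF3 to keep the alternative arm off and that is itself an NF-kB target. The pileup at its start (chr11:102317108-102317917) was 164 in DMSO, 130 in ATRA, 99 in POM and 177 in ATRA+POM, or 164, 149, 250.1 and 250.3 when scaled. The values of POM and ATRA+POM were nearly equal and above the other pair, and the ratio to DMSO was 1.53 (1.18 to 1.97) in POM and 1.53 (1.23 to 1.90) in ATRA+POM, against 0.91 (0.72 to 1.15) in ATRA. It did not pass 2-fold, yet only 4.68% and 4.55% of regions within 1 kb of a gene boundary had a higher ratio. Its counting interval in POM lay above those of 6 other start regions and overlapped those of REL, TNFAIP3 and NFKBIA, and in ATRA+POM it lay above those of 7. Its log2 ratio was above 0 under every scale, from 0.61 to 1.09 in both, and on the deposited fold 0.52 and 0.11. The rank of the region was the top 7.38% in DMSO, 9.75% in ATRA and 2.13% in POM and in ATRA+POM. Of its other regions, one 29.3 kb upstream (chr11:102287877-102288407) had 63, 39, 47 and 54, with a ratio of 1.89 (1.26 to 2.79) in POM and 1.21 (0.83 to 1.77) in ATRA+POM, the second with a log2 ratio of -0.09 on the deposited fold. The region 23.3 kb upstream (chr11:102293917-102294456) had 34, 27 and 17 in DMSO, ATRA and ATRA+POM and no peak in POM, 2.24-fold lower against the floor of 6 reads. Its local background in DMSO was 2.90 reads, above the 2.36 of the library, so the floor does not bound the ratio.

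TRAF3 encodes the adaptor that brings cIAP proteins to the kinase NIK and so keeps the alternative arm silent. Its start region (chr14:102777452-102778819) was the weakest of the 10 in DMSO. The pileup was 87 in DMSO, 40 in ATRA, 12 in POM and 18 in ATRA+POM, or 87, 45.8, 30.3 and 25.5 when scaled. DMSO was the highest, and the ratio to it was 0.53 (0.35 to 0.77) in ATRA, 0.35 (0.17 to 0.64) in POM and 0.29 (0.17 to 0.49) in ATRA+POM. The summits were up to 347 bp apart, so the lists do not name the same base of this region. In its class 98.9%, 95.4% and 98.1% of regions had a higher ratio in ATRA, POM and ATRA+POM, and the log2 ratio was below 0 in POM and ATRA+POM on every scale and on the deposited fold (-0.30 and -0.47). A region 2.40 kb upstream (chr14:102774713-102775441) had 77, 80, 21 and 38, with ratios of 0.69 (0.40 to 1.13) in POM and 0.70 (0.46 to 1.04) in ATRA+POM that counting error does not separate from 1 and that lay above 1 on the deposited fold, with a log2 ratio of 0.60 and 0.74. A region 42.2 kb into the gene (chr14:102819021-102820269) had 53, 53, 8 and 26, a ratio of 0.38 (0.16 to 0.81) in POM and 0.69 (0.42 to 1.13) in ATRA+POM, and on the deposited fold a log2 ratio of -0.54 and 0.01.

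**Figure D3:**
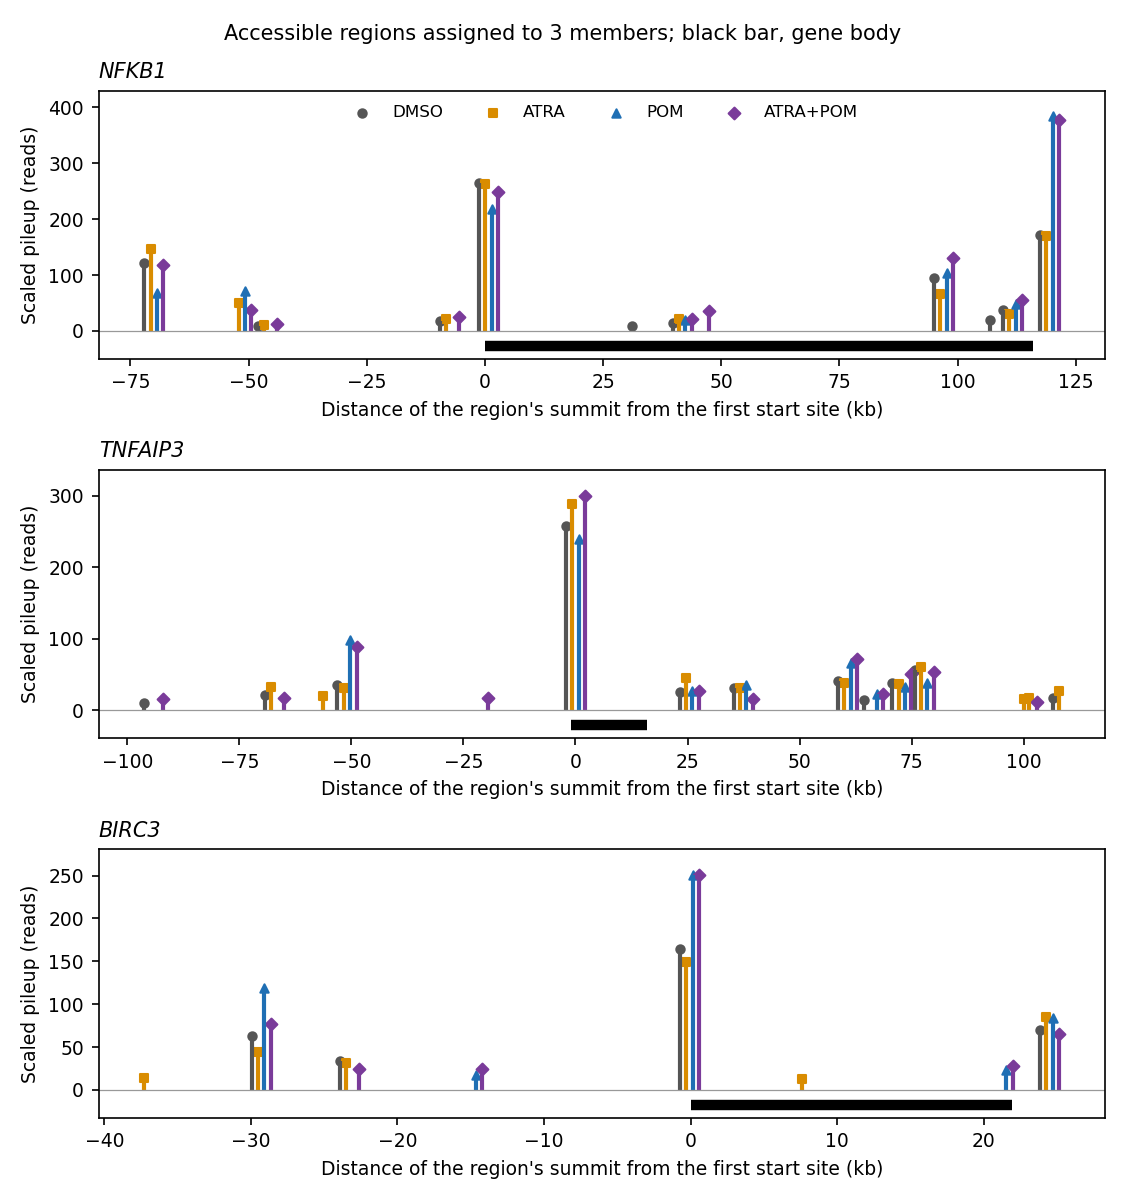
Scaled summit pileup (vertical axis, reads) of every region assigned to NFKB1, TNFAIP3 and BIRC3 against the distance of its summit from the first RefSeq start site (horizontal axis, kb), with the libraries of a region drawn side by side and the gene body as a black bar. POM and ATRA+POM stand above DMSO and ATRA just past the 3′ end of NFKB1, 50.1 kb upstream of TNFAIP3 and at the start of BIRC3.

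Set against all regions, the members' counts were near the background in most comparisons. In ATRA against DMSO, 2 of 57 member regions were past 2-fold higher (1.39% of all regions were) and 0 lower (1.13%), and both were called in ATRA and not in DMSO. In POM against DMSO, 5 of 55 were higher (9.34%) and 7 lower (9.95%). In ATRA+POM against DMSO, 4 of 57 were higher (10.5%) and 5 lower (7.20%). Both comparisons use the same DMSO library. Among regions within 1 kb of a gene boundary, 4 of 12 member regions were past 2-fold lower in POM (21.0% of the class) and 4 of 12 in ATRA+POM (20.5%), and 0 were higher (1.81% and 1.96%). The 4 in POM were RELA at its start and past its end, NFKBIE and TRAF3, and the 4 in ATRA+POM were the starts of RELA, RELB, NFKBIE and TRAF3.

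Median log2 ratios of the members' regions called in both lists were -0.01 in ATRA, -0.19 in POM and -0.06 in ATRA+POM, against 0.02, 0.04 and 0.05 over all regions. The medians of POM and ATRA+POM turned to 0.05 and 0.12 when scaled by depth. By class, the members' median within 1 kb of a boundary was -0.84 in POM and -0.53 in ATRA+POM over 11 regions, and elsewhere 0.13 and 0.14 over 22 and 29 regions, against 0.19 and 0.18 for all regions elsewhere. Taken over all regions, shares of gained and lost regions, called in the treated list only or in DMSO only, were at or below the background. Away from gene boundaries, gained shares were 19.6% in ATRA, 14.0% in POM and 17.8% in ATRA+POM (18.1%, 21.9% and 29.7% of that class). Lost shares there were 19.6%, 34.9% and 17.8% (17.8%, 31.4% and 19.9%). The counts over all regions follow. Gained regions numbered 9 of 57 in ATRA (16.3% of all regions), 7 of 55 in POM (19.5%) and 9 of 57 in ATRA+POM (26.8%), and lost regions 9 (16.3%), 15 (29.1%) and 8 (18.8%).

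**Figure D4:**
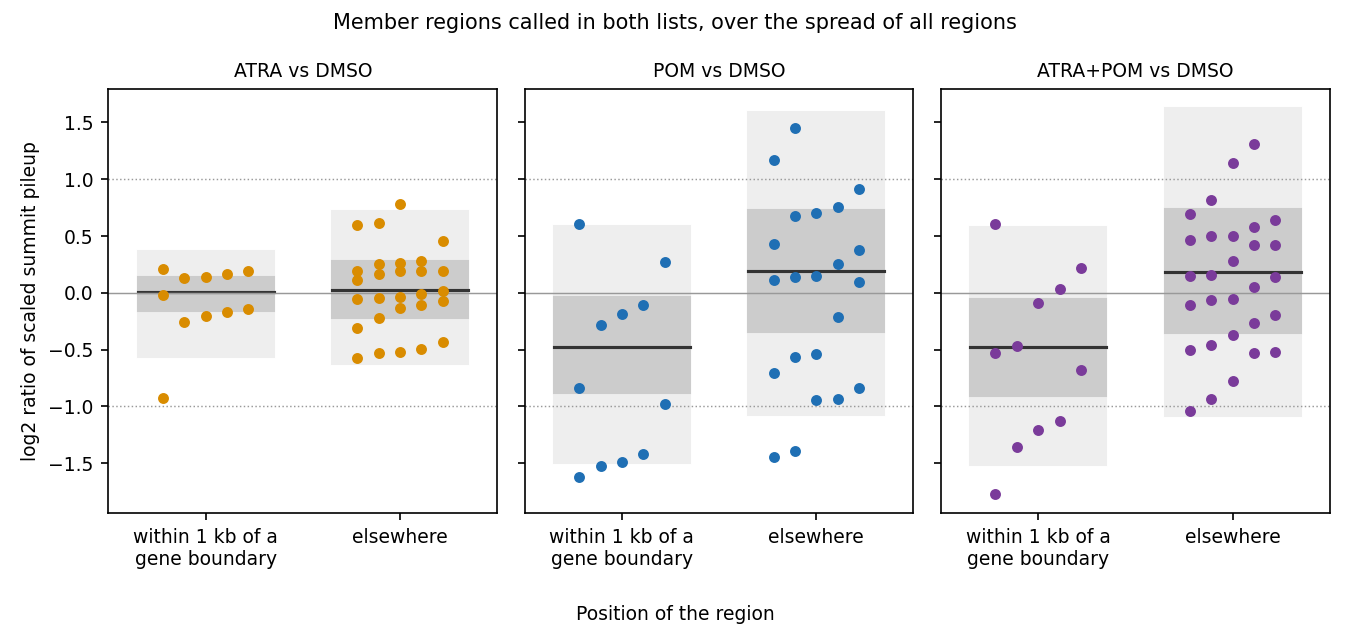
log2 ratio of scaled pileup to DMSO (vertical axis) for member regions called in both lists (points), split by position (horizontal axis), over all regions of the same class (line, median; dark box, quartiles; light box, 5th to 95th percentile; dotted lines, 2-fold). Near gene boundaries the member points in POM and ATRA+POM run from the top of the light box (BIRC3, 0.61) to its foot or below (TRAF3 in ATRA+POM, -1.77).

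ATRA+POM and POM had close values at the gene starts. Against POM alone, the start regions of the 10 genes in ATRA+POM had ratios between 0.79 (NFKBIA) and 1.29 (NFKB2), and the counting interval of every one of the 10 held 1. Elsewhere it lay above 1 at the RELA region past its end (1.92, 1.29 to 2.95) and the NFKB1 region 70.0 kb upstream (1.72, 1.10 to 2.76). It lay below 1 at the BIRC3 region 29.3 kb upstream (0.64, 0.43 to 0.97) and the NFKB1 region 51.4 kb upstream (0.54, 0.31 to 0.95). Past 2-fold were 1 of 51 member regions higher (5.39% of all regions), the NFKB1 region called in ATRA+POM alone, and 2 lower (1.82%), the narrow NFKBIE region called in POM and the TNFAIP3 region 21.4 kb past that gene, where the interval also held 1. Gained regions were 11 of 51 (30.4%) and lost ones 2 (12.4%). Against ATRA alone, ATRA+POM had 2 of 57 higher (9.57%), the region past NFKB1 (2.23-fold) and the one upstream of TNFAIP3 (2.88-fold), and 3 lower (6.85%), with 9 gained (27.1%) and 8 lost (19.2%). The lower ones were the start of NFKBIE, the RELB region inside the gene and the narrow REL region. The start of BIRC3 was 1.68 times its level in ATRA.

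The other genes of the pathway were taken as a list of 57, of which 47 had a region. Of their regions, 2 were past 2-fold higher and 3 lower of 222 in ATRA against DMSO, 15 and 30 of 219 in POM, and 15 and 19 of 225 in ATRA+POM. These are 0.90% and 1.35%, 6.85% and 13.7%, and 6.67% and 8.44%, beside the shares of all regions given above. The ratios of these genes are of scaled pileup only and do not take in the local background.

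Among receptors and ligands, 1 of 36 regions was higher and 8 lower in POM, and 1 and 5 of 33 in ATRA+POM. The TNFRSF13B gene, for the receptor TACI, had a region with 139 reads in DMSO, 110 in ATRA, 19 in POM and 50 in ATRA+POM, 2.90-fold lower in POM and 1.97-fold in ATRA+POM when scaled. TNFRSF17, for the plasma cell receptor BCMA, had 1 region of 248 bp, called in DMSO alone with 84 reads over a local background of 40.7. At 0.421 kb from CD40, a receptor of the alternative arm, a region was called with 19 reads in POM and 56 in ATRA+POM and in neither other list. Its local background of 1.91 and 5.37 reads was above that of the whole libraries, 0.55 and 1.51, so the floor does not bound its ratio to DMSO. Of adaptors and ligases, 1 was higher and 7 lower of 48 in POM, and 1 and 6 of 49 in ATRA+POM. The gene of the kinase RIPK1, which relays signals of the tumour necrosis factor receptor, had a region inside it with 297, 240.0, 44 and 79 reads, 2.67-fold lower in POM and 2.66-fold in ATRA+POM. Its local background was lower there as well, at 30.5, 25.4, 4.58 and 10.7 reads in DMSO, ATRA, POM and ATRA+POM. MALT1, a paracaspase, had one region called in all lists but POM and another, 21.2 kb from the gene, 2.36-fold and 2.83-fold higher, and TRAF1 had one of 447 bp called in DMSO (63 reads) and ATRA (44 reads) only.

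Of kinases, 5 were higher and 6 lower of 45 in POM, and 4 and 4 of 47 in ATRA+POM. Regions of TAB1, an activator of the kinase TAK1, of IKBKB, the catalytic IkB kinase of the canonical arm, and of TBK1 were past 2-fold lower in POM, in ATRA+POM or in both, among them the start of IKBKB with 238, 225, 41 and 85 reads (2.30-fold lower in POM, 1.98-fold in ATRA+POM). Local background at the start of IKBKB was 18.1, 16.7, 2.36 and 7.54 reads in the same order. Of other inhibitors and deubiquitinases, 2 were higher and 5 lower of 42 in POM, and 5 and 3 of 45 in ATRA+POM. BCL3, an atypical IkB protein that works in the nucleus, had a region with 235, 155, 35 and 86 reads (2.66-fold lower in POM, 1.93-fold in ATRA+POM), TNIP2 one with 193, 108, 32 and 66 (2.39-fold and 2.07-fold lower), and NFKBID one with 123, 94, 28 and 35 (1.74-fold and 2.49-fold lower). Local background at the BCL3 region was 37.1, 29.4, 4.39 and 11.2 reads. The IKBKB, TBK1, BCL3 and TNIP2 regions lay within 1 kb of a gene boundary, as did a TAB1 region past 2-fold lower in ATRA+POM. In that class, 21.0% of all regions were past 2-fold lower in POM and 20.5% in ATRA+POM. The part of the local background in these ratios was not tested. Of target genes, 6 were higher and 4 lower of 48 in POM, and 4 and 1 of 51 in ATRA+POM. At the chemokine gene CXCL8 a region 0.04 kb from a gene boundary had no peak in DMSO and 15, 29 and 57 reads in ATRA, POM and ATRA+POM. This is 4.31-fold above the DMSO floor in POM and 4.74-fold in ATRA+POM. Its local background of 1.09 and 2.90 reads was above that of the whole libraries, 0.55 and 1.51, so the floor does not bound these ratios. The adhesion gene ICAM1 had a region with 59, 54, 10 and 10 reads, 2.34-fold and 4.17-fold lower. PTGS2, for cyclooxygenase-2, had one with 54, 68 and 33 reads in DMSO, ATRA and ATRA+POM and no peak in POM. Local background at that region was 15.7 reads in DMSO, so the floor does not bound its ratio in POM. The other PTGS2 regions past 2-fold were higher than in DMSO, one 2.76-fold in ATRA, one 2.105-fold in POM and one 2.02-fold in ATRA+POM.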

How the data were processed

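ATAC-seq peaks of 4 OPM-2 libraries, 1 per treatment label, were used. The authors deposited a peak list per library, not of pooled libraries, on hg38, per the submitters' processing notes. The aligner, the peak caller with its settings and whether reads were shifted for Tn5 were not given in the sources used here. The deposited score, fold (ratio of pileup to background), −log10 p-value and −log10 q-value all describe the summit, and 1 more deposited column holds the offset of the summit within its peak. The largest deposited q-value was 0.0497.

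Peaks on chromosomes 1 to 22 and X were kept (5 left out). Pileup and local background were solved from the deposited fold and −log10 p-value under a Poisson tail, an assumption about the caller. The whole-number pileup gave back the deposited p-value within 0.01 on the log10 scale for 100.0% of peaks in each list. Medians were 30, 27, 15 and 22 reads in DMSO, ATRA, POM and ATRA+POM. Depth was taken from the recovered background divided by the width of the narrowest peak of the list, since read totals were not used here. Peaks overlapping by 1 bp were merged across lists, and a region took the gene of its highest-scoring summit. Ranks are within a list, by the deposited −log10 q-value. Intervals are exact binomial (Clopper-Pearson) at 95%, for counting error only. A region missing from a list was set at that list's floor, the 95th percentile of pileup among its 5% of peaks with the lowest −log10 q-value (17, 16, 6 and 12 reads), and counted as past 2-fold only beyond it.

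Genes and promoters came from RefSeq tables of GRCh38.p14, which give gene bodies but no exons or UTRs, so regions are placed inside or outside a gene only. For RELB and NFKBIE, the start region is the one at the gene boundary. The code was tested on simulated data (Python 3.11.15, numpy 2.4.6, scipy 1.17.1, pandas 2.3.3). Named were all 10 genes, with the region at the start, the one with the highest pileup and every region past 2-fold, and at most 3 other pathway genes per role with a region past 2-fold against DMSO, those with the highest pileup first. Some further regions of the members are named as contrasts and were chosen after their values were seen. The members and lists were chosen with earlier results of these data known. Alternatives were list length, a stricter q-value, assignment limit and gene types, summit distance, scale, the deposited fold and a 1.5-fold threshold.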

Additional observations from a re-analysis of the deposited data

How the results depend on the processing

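With a limit of 10 kb, 30 peaks in DMSO, 30 in ATRA and 30 in ATRA+POM were assigned to the members, and with genes of all types 25 in each list. When shared meant summits within 250 bp, ATRA against DMSO had 15 gained and 15 lost regions and ATRA+POM against POM 4 lost. With lists of equal length, 4 regions were lost in ATRA, 9 in POM and 4 in ATRA+POM against DMSO. A stricter q-value of 0.01 left all 14 counts it bears on within 1.5 times.

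Counts past 2-fold moved with the threshold and with the scale. Shares of all regions were not counted under any alternative in this section, so these counts have no background beside them. A change of scale moves the ratio of every region, member or not, by the same factor. Scaled near gene boundaries, 11 regions were higher and 3 lower in POM against DMSO, 10 and 1 in ATRA+POM against DMSO, and 10 and 1 in ATRA+POM against ATRA. Scaled by depth, 1 was lower in ATRA, 3 were lower in ATRA+POM against DMSO, and 8 were higher in ATRA+POM against ATRA. On the deposited fold, 1 was higher in ATRA, 2 were higher and 1 lower in POM, 0 were lower in ATRA+POM against DMSO, 1 was lower against ATRA, and 0 were higher and 0 lower against POM. With the limit of 10 kb, 1 was higher in ATRA, 2 in POM and 2 in ATRA+POM against DMSO, 1 in ATRA+POM against ATRA, and 1 was lower against POM. At 1.5-fold, higher and lower counts were 5 and 1 in ATRA, 11 and 14 in POM, 9 and 8 in ATRA+POM against DMSO, 10 and 14 against ATRA, and 9 and 6 against POM.

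Median log2 ratios of the members changed sign for ATRA with the limit of 10 kb (0.017), for POM scaled by depth (0.045), near boundaries (0.288) and on the deposited fold (0.298), for ATRA+POM against DMSO (0.116, 0.421 and 0.132) and against ATRA (0.094, 0.3 and 0.231) in the same order, and against POM on the deposited fold (-0.062). Of 24 ratios of named regions, all stayed within their counting interval when scaled by depth and 18 left it when scaled near boundaries. On the deposited fold 4 stayed within their interval. There 3 ratios that were past 2-fold reversed, the RELA start in POM (0.053) and ATRA+POM (0.27) and the RELB start in ATRA+POM (0.16). Among ratios not past 2-fold, the sign also changed at the RELB start in POM (-0.977 to 0.403) and the TNFAIP3 start in POM. It changed in both comparisons at the starts of NFKB1, NFKB2 and NFKBIA. The cause was not tested beyond the local background given for RELA. No paired analysis was possible because each group has 1 library, and no library could be left out. In POM, the shallowest library, the smallest pileup called was 4 reads, so weaker regions were not detectable there.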

Other observations

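The regions of 2 further genes of the pathway were chosen after their values were seen. IKBKE encodes a kinase related to TBK1, and a region inside it (chr1:206495209-206496742) had a pileup of 17 in DMSO, 17 in ATRA, 49 in POM and 104 in ATRA+POM, 7.28-fold higher in POM and 8.65-fold in ATRA+POM when scaled. Its local background was 4.40, 4.92, 3.69 and 11.6 reads in the same order, above that of the whole libraries. These ratios do not take that background in. NFKBIZ encodes an inducible nuclear IkB protein, and a region 71.9 kb from it (chr3:101932541-101933190) was called with 31 reads in POM and 58 in ATRA+POM and in neither other list. Its local background was 3.24 and 6.91 reads, above that of the whole libraries, so the floor does not bound its ratio to DMSO. Another region of IKBKE (chr1:206479417-206479999) went the other way, with 58 reads in DMSO, 43 in ATRA, none called in POM and 24 in ATRA+POM.

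The local background recovered under the members' start regions moved with the treatments as well. At RELB it was 28.9 reads in DMSO, 23.1 in ATRA, 3.61 in POM and 7.72 in ATRA+POM, and at BIRC3 9.89, 10.5, 3.62 and 9.87, while the background of the whole library was 2.36, 2.36, 0.55 and 1.51. Its part in the ratios was not tested.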
